A study of Mus musculus with 16 samples.

Results

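Luminal progenitors are cells of the mammary epithelium that give rise to the milk-secreting alveolar cells. A set of genes linked to this state in mouse mammary gland, Elf5, Sox10, Sox9, Kit, Gabrp, Aldh1a3 and Cnmd, was followed across mammary tumours of mice with STAT5 transgenes and normal glands. They were chosen from results of the same arrays, and every probe set that the probe-to-gene table gives to 1 of them alone was taken, 15 of the 22690 probe sets and 7 of the 12394 named genes of the array. Differences of these genes are therefore given as descriptions, with no test.

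RNA was measured on 16 Affymetrix arrays, 1 for each sample, all from mice of the FVB/N background. Of these samples, 7 were mammary tumours of mice transgenic for STAT5ca, a constitutively active STAT5, 6 were mammary tumours of mice transgenic for STAT5Δ750, a STAT5 truncated at its C-terminus, and 3 were normal mammary glands. The labels give neither the promoter of the transgenes, the age of the mice, the stage of the glands nor the histology of the tumours, and they do not say whether each array came from a separate mouse. Each p-value below thus sets a difference of group means against the spread between these samples, and may not hold for the spread between mice. Array names are those of the labels, such as STAT5ca_177.

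In mammary epithelium STAT5 carries the signal of prolactin, and ELF5, an ETS factor, acts beside it to drive alveolar differentiation of luminal progenitors. SOX10 and SOX9 are factors of the SOX family that mark progenitor states of this epithelium. KIT is a receptor tyrosine kinase for stem cell factor, GABRP is the pi subunit of the GABA-A receptor, ALDH1A3 makes retinoic acid from retinaldehyde, and chondromodulin, the product of Cnmd, is a glycoprotein best known from cartilage, where it inhibits vessel growth.

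The array of tumour STAT5ca_177 stood apart from the other 15. Its mean correlation with its own group was 0.71, and the remaining STAT5ca arrays had 0.82 to 0.87. Its signal for Krt8, a luminal keratin, was 25.3, where 6 STAT5ca arrays had 3836 to 5376, and Epcam, an epithelial adhesion molecule, had 80.3, against 3499 to 4958. Vim, an intermediate filament of mesenchymal cells, had 7363 on this array, against 1015 to 2796 on the other 6. In STAT5Δ750 tumours Krt8 had 3711 to 5276 and Epcam 2937 to 3797. In gland they had 708 to 1880 and 1212 to 2736. The beta-actin 3'/5' signal ratio, a measure of RNA degradation, was 1.76 to 5.38 on STAT5ca arrays and 1.27 to 3.52 on STAT5Δ750 arrays, against 1.07 to 1.25 on gland arrays, and the differences of the 7 genes from gland are also given with this ratio in the model. Every tumour array had a higher ratio than every gland array. Differences from gland with the ratio in the model thus reach beyond the ratios shared by the groups, and RNA quality and tumour cannot be fully told apart. Stat5a had 103 to 610 in STAT5ca tumours and 98.6 to 587 in STAT5Δ750 tumours, against 392 to 683 in gland, and whether its probe set reads the transgenes is not given. In these bulk samples fewer cells of a type and less RNA per cell cannot be told apart.

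On STAT5ca_177 all 7 genes had their lowest log2 value among the 13 tumours. The log2 difference of this array from the mean of the other 6 STAT5ca tumours was −7.28 for Elf5, −7.19 for Cnmd, −7.13 for Sox10, −5.86 for Sox9, −4.59 for Gabrp, −4.53 for Aldh1a3 and −4.06 for Kit. Across the 9261 genes tested these differences ranked between the 0.01 and the 1.54 percentile, and the median gene differed by 0.04. Krt8 and Epcam were low on the same array. Differences of the 7 genes are therefore given with and without it, and since 1 spread was fitted over the 3 groups, leaving it out also changes the standard errors of STAT5Δ750 tumours.

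**Figure D1:**
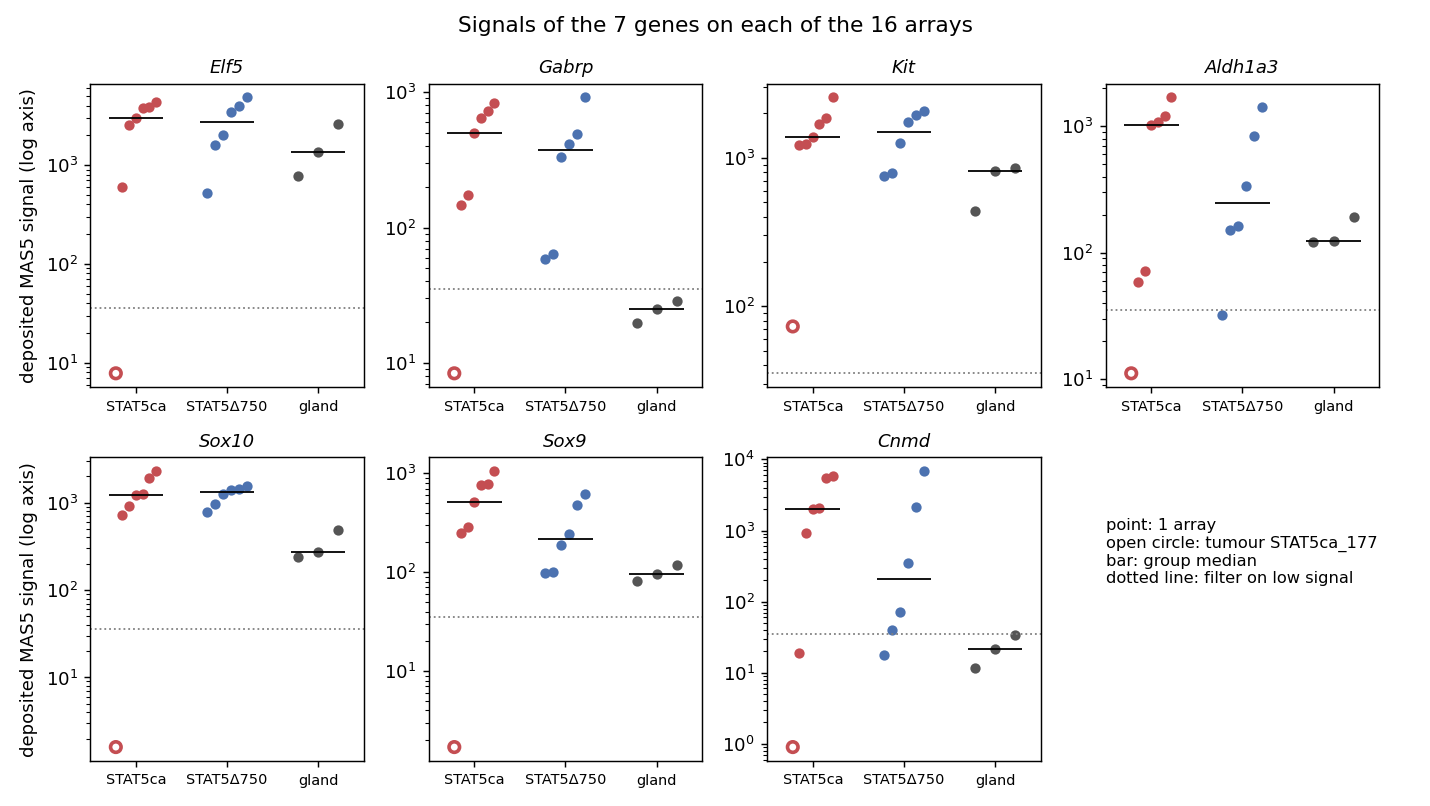
Signal of each of the 7 genes as deposited, on a log axis, with 1 point per array, a bar at the group median, a dotted line at 35.4 and the groups STAT5ca, STAT5Δ750 and gland along the horizontal axis. The open circle marks STAT5ca_177, which lies at the bottom of the STAT5ca points in all 7 panels, with Elf5 at 7.8 and Kit at 73.2.

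Promoters were read from RefSeq, build GRCm38.p6, 250 bases before to 50 after a start, for the 4 genes with an entry. Elf5 is shown because it held the only match to a searched motif. Gabrp and Cnmd are shown because their log2 signals had r = 0.73 over the 12 tumours other than STAT5ca_177. That r was 0.48 without the 2 tumours farthest from the median of Gabrp.
Elf5, chr2:103411848-103412147, plus strand: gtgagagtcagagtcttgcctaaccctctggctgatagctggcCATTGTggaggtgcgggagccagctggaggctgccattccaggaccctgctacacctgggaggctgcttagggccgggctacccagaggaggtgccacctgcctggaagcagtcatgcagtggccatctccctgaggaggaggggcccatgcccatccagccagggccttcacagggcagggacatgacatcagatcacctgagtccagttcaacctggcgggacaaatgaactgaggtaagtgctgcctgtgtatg
Gabrp, chr11:33578908-33579207, minus strand: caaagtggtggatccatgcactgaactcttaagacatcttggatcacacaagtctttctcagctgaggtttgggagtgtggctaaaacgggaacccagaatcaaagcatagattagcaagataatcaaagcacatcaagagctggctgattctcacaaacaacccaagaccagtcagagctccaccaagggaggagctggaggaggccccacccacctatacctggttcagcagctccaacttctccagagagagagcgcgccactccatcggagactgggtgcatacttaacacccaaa
Cnmd, chr14:79662134-79662433, minus strand: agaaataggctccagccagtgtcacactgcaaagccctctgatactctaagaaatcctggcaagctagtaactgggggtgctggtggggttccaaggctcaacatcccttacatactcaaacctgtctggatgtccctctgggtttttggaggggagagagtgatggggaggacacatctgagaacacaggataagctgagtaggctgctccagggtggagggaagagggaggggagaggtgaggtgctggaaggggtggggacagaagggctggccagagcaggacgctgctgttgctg
Capitals mark the match, CATTGT, the reverse complement of the SOX motif ACAATG, 207 bases before the start. The search took both strands for ACAATG, for the STAT motif TTCNNNGAA and for the ETS motif CCGGAAGT. Of 32851 promoters of the same length, 12.6% held the SOX motif, 8.30% the STAT motif and 3.89% the ETS motif. No other match was found in the 6 windows of Elf5, Gabrp, Cnmd and Kit. Sox10, Sox9 and Aldh1a3 had no entry.

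Elf5 was carried by 2 probe sets. For the one with the higher mean, used for the gene, the deposited signal was 7.8, 607, 2569, 3036, 3815, 3838 and 4381 in STAT5ca tumours and 518, 1582, 2026, 3473, 3987 and 4849 in STAT5Δ750 tumours, against 769, 1369 and 2586 in gland. Among the tumours STAT5ca_177, STAT5Δ750_160 and STAT5ca_169 were lowest, and both tumour groups overlapped gland. On the log2 scale, after each array was brought to a common median, the difference from gland was 0.10 ± 1.34 (SE) in STAT5ca tumours and 0.78 ± 1.37 in STAT5Δ750 tumours. Without STAT5ca_177 the differences were 1.14 ± 0.69 and 0.78 ± 0.69. The second probe set gave 1.70 ± 0.98 and 1.85 ± 1.01, or 2.30 ± 0.76 and 1.85 ± 0.76 without STAT5ca_177, so that the 2 probe sets differed in size but not in direction. In gland the second had signals of 19.8, 37.7 and 189, of which 19.8 and 37.7 are near background.

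Sox10 had signals of 1.6, 727, 905, 1210, 1244.5, 1913 and 2287 in STAT5ca tumours and 784, 951, 1245.5, 1411, 1434 and 1566 in STAT5Δ750 tumours, against 236, 274 and 492 in gland. All 6 STAT5Δ750 tumours and 6 of the 7 STAT5ca tumours lay above the highest gland. The log2 difference from gland was 1.22 ± 1.20 in STAT5ca tumours and 2.02 ± 1.23 in STAT5Δ750 tumours, and without STAT5ca_177 it was 2.23 ± 0.39 and 2.02 ± 0.39. The other 2 probe sets gave 1.43 ± 0.66 and 1.14 ± 0.59 in STAT5ca tumours, or 1.88 ± 0.46 and 1.55 ± 0.40 without STAT5ca_177. In STAT5Δ750 tumours they gave 1.64 ± 0.68 and 1.75 ± 0.61, with SE of 0.46 and 0.40 without STAT5ca_177. The last of these probe sets was near background in gland, at 9.0 to 38.5.

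Sox9 had signals of 1.7, 248, 285, 517, 761, 781 and 1052 in STAT5ca tumours and 98.9, 99.4, 189, 241, 484 and 616 in STAT5Δ750 tumours, against 81.0, 95.1 and 119 in gland. The 6 STAT5ca tumours other than STAT5ca_177 lay above every gland, and 4 of the 6 STAT5Δ750 tumours did. The log2 difference from gland was 1.77 ± 1.07 in STAT5ca tumours and 1.28 ± 1.09 in STAT5Δ750 tumours, and without STAT5ca_177 it was 2.61 ± 0.53 and 1.28 ± 0.53. The second probe set, near background in gland at 10.9 to 17.9, gave differences of 2.03 ± 0.62 and 1.22 ± 0.63, or 2.52 ± 0.30 and 1.22 ± 0.30 without STAT5ca_177. It put the same 6 STAT5ca tumours above all 6 STAT5Δ750 tumours, at 78.5 to 204 against 21.5 to 71.8.

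Kit had signals of 73.2, 1215, 1233, 1385, 1674, 1860 and 2546 in STAT5ca tumours and 757, 785, 1253, 1740, 1947 and 2055 in STAT5Δ750 tumours, against 437, 817 and 847 in gland. In deposited signal, apart from STAT5ca_177, every STAT5ca tumour and 4 of the 6 STAT5Δ750 tumours lay above every gland. The log2 difference from gland was 0.91 ± 0.73 in STAT5ca tumours and 1.09 ± 0.75 in STAT5Δ750 tumours, and without STAT5ca_177 it was 1.49 ± 0.35 and 1.09 ± 0.35. The second probe set spread more, with signals of 61.2 to 811 in the 6 STAT5ca tumours other than STAT5ca_177 and 132 to 699 in STAT5Δ750 tumours, against 25.9 to 201 in gland. Its log2 SD was 1.52 in those 6 STAT5ca tumours, where the first probe set had 0.32, and 3 of the 6 lay above every gland. Its differences were 1.17 ± 0.92 and 1.88 ± 0.94, or 1.67 ± 0.77 and 1.88 ± 0.77 without STAT5ca_177. Mast cells also carry Kit. The mast cell list summed to 87.0 to 492.8 in STAT5ca tumours and 96.3 to 747 in STAT5Δ750 tumours, against 492.7 to 789 in gland. The mast cell receptor genes Fcer1a and Ms4a2 were above 35.4 on 0 arrays, gland included, so they cannot show whether the groups differed in mast cells. No tumour had a larger mast cell sum than the highest gland.

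Gabrp had signals of 8.4, 146, 175, 499, 646, 720 and 832 in STAT5ca tumours and 58.7, 64.1, 333, 416, 486 and 912 in STAT5Δ750 tumours, against 19.6, 25.0 and 28.8 in gland. The gland values were all under 35.4, the limit below which a signal was taken as close to background. All STAT5Δ750 tumours and 6 of 7 STAT5ca tumours lay above every gland. The log2 difference from gland was 3.28 ± 1.02 in STAT5ca tumours and 3.11 ± 1.05 in STAT5Δ750 tumours, and without STAT5ca_177 it was 3.93 ± 0.74 and 3.11 ± 0.74. The second probe set gave 2.71 ± 0.78 and 2.76 ± 0.79, or 3.12 ± 0.66 and 2.76 ± 0.66 without STAT5ca_177.

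Aldh1a3 divided the tumours. Its signals were 11.1, 58.4, 71.7, 1021, 1086, 1211 and 1691 in STAT5ca tumours and 32.0, 151, 163, 334, 836 and 1432 in STAT5Δ750 tumours, against 122, 123.6 and 190 in gland. STAT5ca_177, STAT5ca_169 and STAT5ca_123 lay below all 3 glands, while the other 4 STAT5ca tumours lay above them. The log2 difference from gland was 1.27 ± 1.31 in STAT5ca tumours and 1.01 ± 1.35 in STAT5Δ750 tumours, and without STAT5ca_177 it was 1.92 ± 1.14 and 1.01 ± 1.14. The other 2 probe sets gave 1.60 ± 1.09 and 1.55 ± 1.14 in STAT5ca tumours, or 2.06 ± 1.0 and 2.01 ± 1.06 without STAT5ca_177. In STAT5Δ750 tumours they gave 1.67 ± 1.11 and 1.74 ± 1.17, with SE of 1.0 and 1.06 without STAT5ca_177. In gland these probe sets had median signals of 26.3 and 15.7, near background.

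Cnmd ranged most of the 7 genes. Its signals were 0.9, 18.9, 935, 2026, 2081, 5564 and 5794 in STAT5ca tumours and 18.0, 39.7, 70.7, 352, 2150 and 6833 in STAT5Δ750 tumours, against 11.5, 21.6 and 33.8 in gland. Signals of 0.9, 18.0 and 18.9 lie at or under the gland level, so STAT5ca_177, STAT5ca_123 and STAT5Δ750_178 showed no more Cnmd than gland. The log2 difference from gland was 4.60 ± 2.01 in STAT5ca tumours and 3.40 ± 2.06 in STAT5Δ750 tumours, and without STAT5ca_177 it was 5.62 ± 1.72 and 3.40 ± 1.72. Cartilage carries Cnmd, and the cartilage list summed to 196 to 12027 in STAT5ca tumours and 765 to 7834 in STAT5Δ750 tumours, against 300 to 1171 in gland. Of its 12 genes Acan, Hapln1, Matn1, Matn3 and Col10a1 were above 35.4 on 0 arrays, and Col2a1 on 2. Other genes of the list were high on some tumours. Col11a1 reached 1896 in STAT5ca tumours and 1281 in STAT5Δ750 tumours, against 18.2 in gland. Chad reached 471 in STAT5ca tumours and 90.5 in STAT5Δ750 tumours, against 8.1 in gland, Col9a2 237 and 126, against 24.5, and Comp 3511 and 1493, against 18.1. Of the 5 cartilage genes that passed the filter, set against Cnmd over the 12 tumours other than STAT5ca_177 after values were seen, Chad had a Pearson r of 0.72 and a Spearman rho of 0.71, with r = 0.65 without the 2 tumours farthest from the median of Cnmd. Cnmd had r = −0.66 and rho = −0.61 with Col9a1. With Comp, Col9a2 and Col11a1 it had r of 0.12, −0.12 and −0.01. The part of cartilage cells in the Cnmd signal was not tested.

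Across the 7 genes, the median log2 difference from gland was 1.27 in STAT5ca tumours, or 2.23 without STAT5ca_177, and 1.28 in STAT5Δ750 tumours, where the median of all genes was 0.25 and 0.08. For 12 genes of luminal epithelium in general, such as Krt8 and Epcam, the median was 1.41, or 2.10 without STAT5ca_177, and 1.92. A rise above gland was thus not particular to the 7 genes. All 7 differences from gland were above 0 in both tumour groups, but that of Elf5 in STAT5ca tumours was small and its sign was not stable. It was −0.16 with the deposited scaling, −0.16 with quantile normalization, −0.27 without gland 4, and −0.22 to −0.08 without STAT5ca_123, STAT5ca_124, STAT5ca_159, STAT5ca_171 or STAT5ca_213. With the beta-actin ratio in the model, the differences in STAT5ca and in STAT5Δ750 tumours were −1.36 ± 1.80 and −0.10 ± 1.54 for Elf5 and −0.91 ± 1.65 and −0.30 ± 1.41 for Aldh1a3. For Sox10 the STAT5ca difference was then close to 0, with an SE of 1.62, and the STAT5Δ750 difference 1.29 ± 1.39. Sox9 then differed from gland by 0.79 ± 1.45 and 0.70 ± 1.25, Kit by 0.31 ± 1.0 and 0.73 ± 0.86, Gabrp by 2.33 ± 1.39 and 2.55 ± 1.19, and Cnmd by 2.67 ± 2.73 and 2.24 ± 2.34. On the probe set used for each gene, 0 of the 7 genes had all STAT5ca arrays above gland, where 14.5% of all genes did, and without STAT5ca_177 4 of 7 did, Sox10, Sox9, Kit and Gabrp, where 20.8% of all genes did. On other probe sets 3 of these 6 STAT5ca tumours lay above gland for Kit and 5 of 6 for 1 probe set of Sox10. In STAT5Δ750 tumours 2 of 7 genes had all arrays above gland on the probe set used, Sox10 and Gabrp, where 18.5% of all genes did. On the second probe set of Sox9, near background in gland, all 6 STAT5Δ750 tumours lay above gland. Both comparisons use the same 3 glands. The rule that chose the genes used these contrasts, and nothing is read from the counts.

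**Figure D2:**
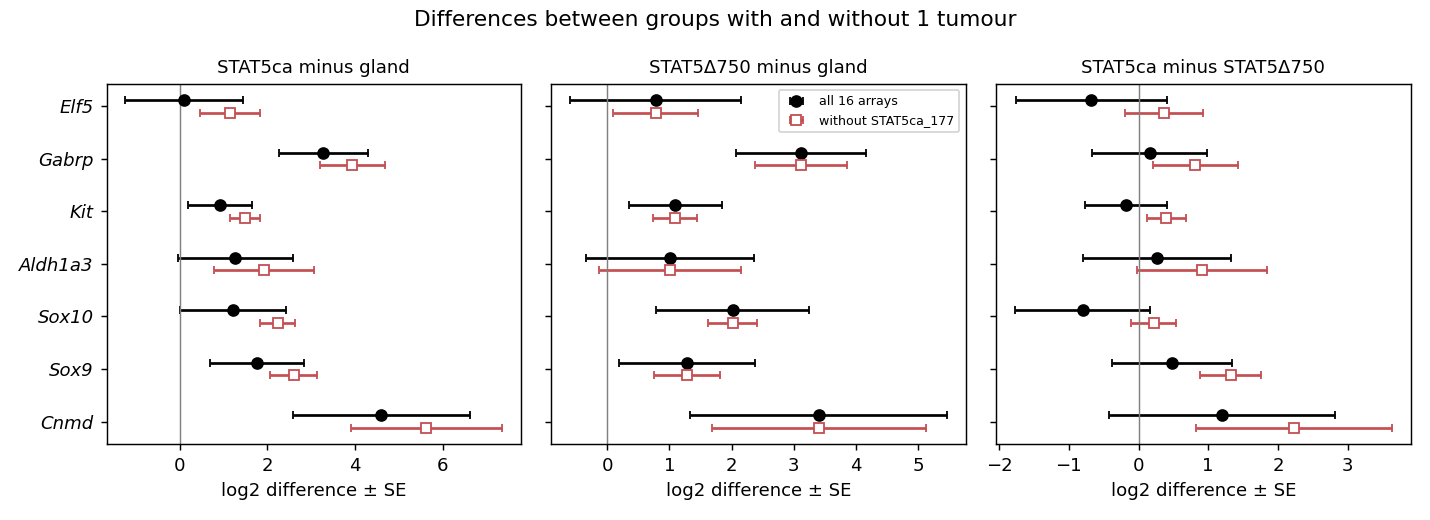
Log2 difference ± SE of each gene for STAT5ca minus gland, STAT5Δ750 minus gland and STAT5ca minus STAT5Δ750, with filled points for all 16 arrays and open points without STAT5ca_177. Without that array the standard errors shrink, to 0.39 for Sox10 against gland. On the probe set used for each gene, all 7 open points in the right panel lie above 0.

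Between the tumour groups, with all 13 tumours, each difference was smaller than its standard error. The difference of STAT5ca minus STAT5Δ750 was −0.68 ± 1.08 for Elf5, −0.80 ± 0.97 for Sox10, 0.48 ± 0.86 for Sox9 and −0.18 ± 0.59 for Kit. It was 0.16 ± 0.82 for Gabrp, 0.26 ± 1.06 for Aldh1a3 and 1.20 ± 1.62 for Cnmd. Without STAT5ca_177 the signs of Elf5, Sox10 and Kit turned on the probe sets used, to 0.36 ± 0.56, 0.22 ± 0.32 and 0.40 ± 0.28. Sox9 then reached 1.32 ± 0.44, and Cnmd, Aldh1a3 and Gabrp were at 2.23 ± 1.40, 0.91 ± 0.93 and 0.82 ± 0.60. On other probe sets the sign stayed negative for Kit, at −0.21 ± 0.62, and for 1 probe set of Sox10, at −0.21 ± 0.33. It turned for the remaining probe set of Sox10, to 0.24 ± 0.37, and for the second of Elf5, to 0.44 ± 0.62. The sign of Gabrp and of Aldh1a3 also turned when other single arrays were left out, such as STAT5Δ750_165, without which they were −0.21 and −0.30. On the probe set used for each gene, 0 of the 7 had groups without overlap, where 0.151% of all genes had every STAT5ca above every STAT5Δ750 tumour, or 0.335% without STAT5ca_177. Without that array the second probe set of Sox9 had no overlap, with the values given for it above. Over all genes 0 passed an adjusted p of 0.05 in limma, and 764 had an unadjusted p under 0.05.

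The genes differed widely in how much they varied from tumour to tumour. Over the 12 tumours other than STAT5ca_177, the log2 SD was 3.09 for Cnmd, 1.95 for Aldh1a3, 1.28 for Gabrp, 1.10 for Sox9, 1.09 for Elf5, 0.59 for Sox10 and 0.53 for Kit, where the median gene had 0.49. In gland the SD of the same genes was 0.25 to 0.75. On the probe sets used, Sox10 and Kit were thus close to the median gene in their spread among tumours, and Cnmd was at the 99.9 percentile.

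The 7 genes did not move as 1 block among the tumours. Over 13 tumours the 21 pairs had a Pearson r between 0.35 and 0.90, with a median of 0.72. Over the 12 tumours without STAT5ca_177 the range was −0.57 to 0.83 and the median 0.28, with 6 pairs below 0. The pooled values rest in large part on that array. These correlations are descriptions, since the arrays share the tumour groups and the RNA quality differed among them.

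**Figure D3:**
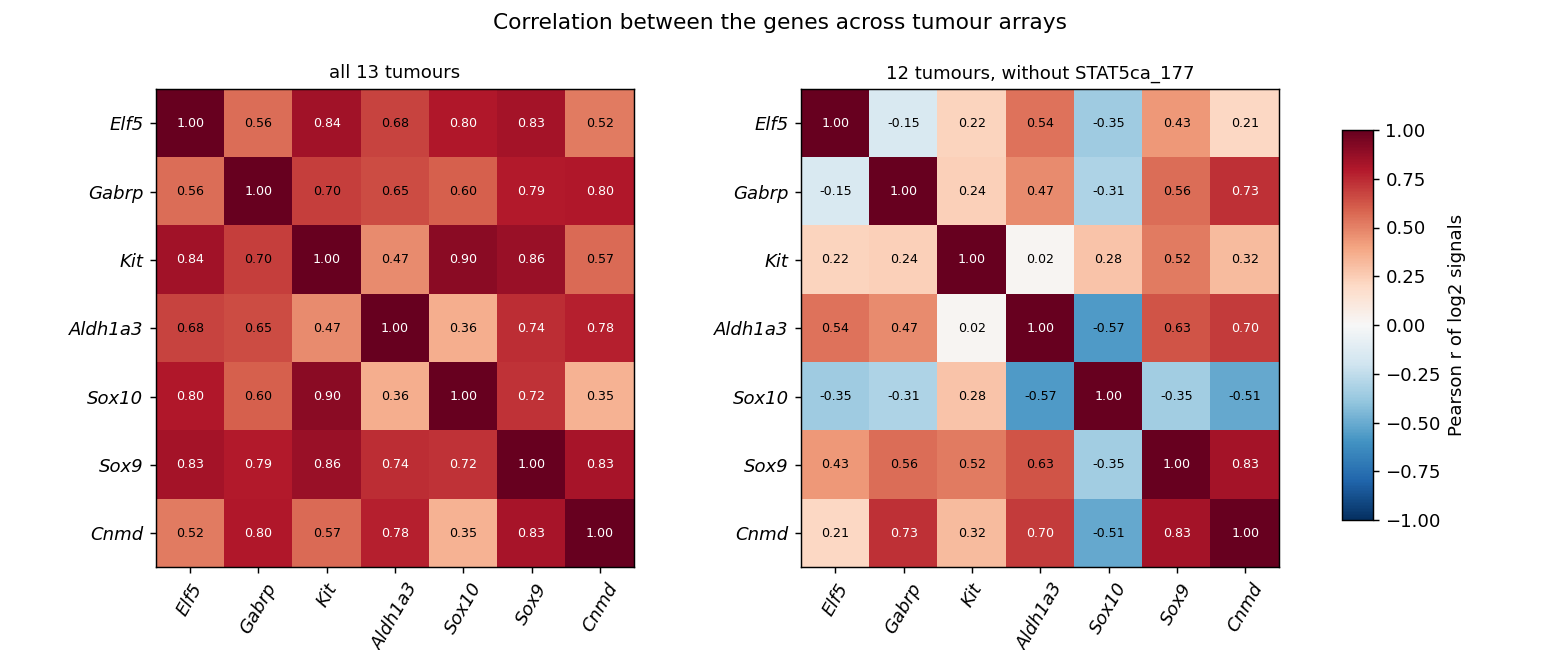
Pearson r of log2 signals for each pair of genes over all 13 tumours and over the 12 tumours without STAT5ca_177, on a colour scale of −1 to 1. The left panel is above 0 throughout, and the right panel has 6 pairs below 0, 5 of them with Sox10.

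Of the 21 pairs, Cnmd and Sox9 had the highest r over the 12 tumours without STAT5ca_177, with r = 0.83 and rho = 0.79, then r = 0.77 in the 6 STAT5ca tumours other than STAT5ca_177 and r = 0.87 in the 6 STAT5Δ750 tumours. Leaving out the 2 tumours farthest from the median of Cnmd gave r = 0.94 over the 12, 0.88 in the STAT5ca and 0.45 in the STAT5Δ750 tumours. Gabrp and Cnmd had r = 0.73 and rho = 0.59, with r = 0.48 without the 2 tumours farthest from the median of Gabrp, and Cnmd and Aldh1a3 had r = 0.70 and rho = 0.66. Sox10 ran against both, with r = −0.57 for Aldh1a3 and −0.51 for Cnmd, and rho of −0.38 and −0.45. Without the 2 tumours farthest from the median of Sox10 these r were −0.53 and −0.38. In the STAT5ca tumours other than STAT5ca_177 they were −0.71 and −0.70, and −0.70 and −0.57 without the 2 farthest. In STAT5Δ750 tumours they were −0.57 and −0.68, but 0.79 and 0.69 without the 2 farthest. Elf5 and Kit had r = −0.97 in the 6 STAT5ca tumours other than STAT5ca_177 and 0.72 in STAT5Δ750 tumours, with rho of −0.77 and 0.60. Without the 2 tumours farthest from the median of Elf5, r was −0.70 and 0.50. The difference between the groups was not tested.

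**Figure D4:**
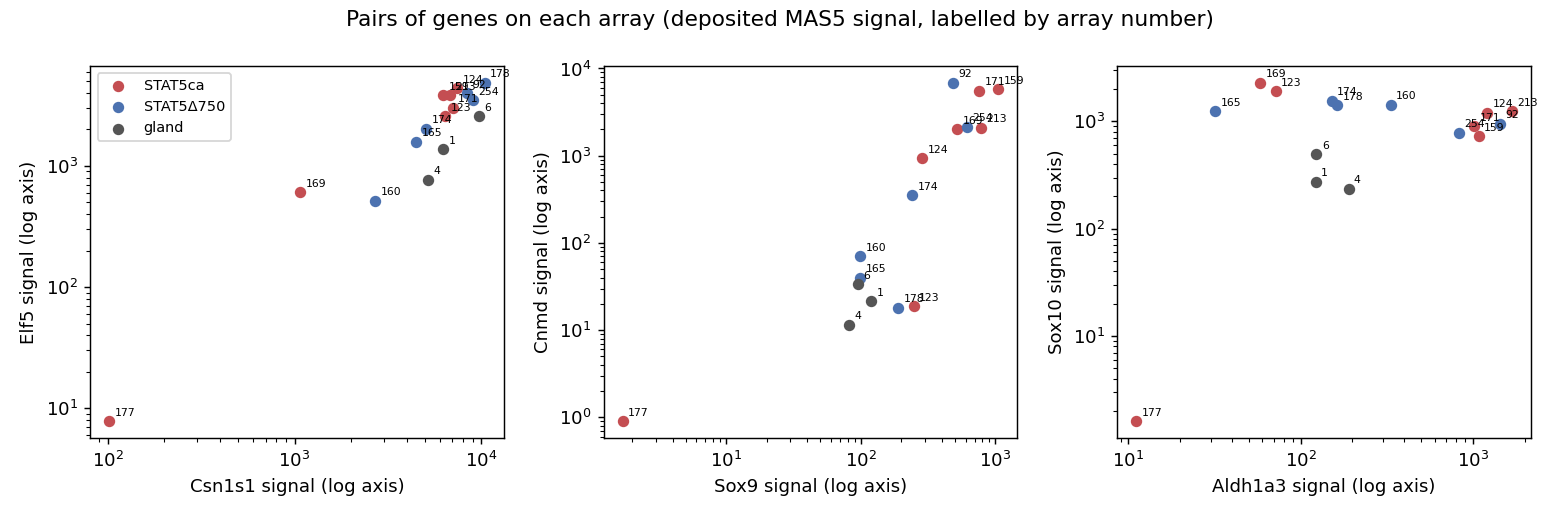
Deposited signals on log axes for Csn1s1 and Elf5, Sox9 and Cnmd, and Aldh1a3 and Sox10, with 1 point per array, coloured by group and numbered as in the labels. STAT5ca_177 lies at the lower left of all 3 panels, and apart from it Cnmd and Sox9 rise together over the tumours, with r = 0.83, while Aldh1a3 and Sox10 do not, with r = −0.57.

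The 3 genes of highest Pearson r with each of the 7 genes over the 13 tumours were taken as most like it. For Elf5 they were Csn1s1, an alpha casein of milk, with r = 0.98, and 0.91 without STAT5ca_177, then Gphn with 0.96 and 0.88 and Epb41l5 with 0.96 and 0.78. For Cnmd they were Bbox1, with 0.94 and 0.93, Armcx2, with 0.94 and 0.93, and Hmgn3, with 0.94 and 0.92. For Aldh1a3 they were Nav2, with 0.97 and 0.96, Atp11a, with 0.93 and 0.91, and Nrarp, with 0.93 and 0.93. For Gabrp they were Ift81, with 0.93 and 0.87, Sephs1, with 0.91 and 0.85, and Dcbld1, with 0.90 and 0.84. Without that array the genes nearest Sox10 had r of 0.79 for Stard10, 0.67 for Lcn2 and 0.80 for Krtcap3. Those nearest Kit had 0.82 for Pkp2, 0.82 for Qser1 and 0.81 for Plet1. Those nearest Sox9 had 0.85 for Myo6, 0.78 for Perp and 0.78 for Zfp704. Some of these r differed between the tumour groups. With Kit, Pkp2, Qser1 and Plet1 had −0.86, 0.45 and 0.11 in the STAT5ca tumours other than STAT5ca_177. In STAT5Δ750 tumours they had 0.99, 0.91 and 0.90. In the same order of groups, Lcn2 had 0.94 and 0.05 with Sox10, and Zfp704 0.31 and 0.91 with Sox9.

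Csn1s1 had signals of 102, 1069.9, 6237, 6412, 6774, 7040 and 7450 in STAT5ca tumours and 2703, 4488, 5064, 8391, 9065 and 10450 in STAT5Δ750 tumours, against 5182, 6254 and 9673 in gland. The tumours low in Elf5, STAT5ca_177, STAT5ca_169 and STAT5Δ750_160, were also the 3 lowest of the 13 in Csn1s1. Its r with Elf5 was 0.97 in the 6 STAT5ca tumours other than STAT5ca_177 and 0.98 in STAT5Δ750 tumours. Csn2, the beta casein, had r = 0.78 and rho = 0.85 with Elf5 over the 12 tumours.

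Krt19, a luminal keratin singled out after its values were seen, followed Aldh1a3, with r = 0.81 and rho = 0.97 over the 12 tumours, and r = 0.82 without the 2 farthest from the median of Aldh1a3. It was 20.8 on STAT5ca_123 and 41.3 on STAT5ca_169, and 5298 to 5897 on the 4 other STAT5ca tumours apart from STAT5ca_177. In gland it was 387 to 1425. Krt8 was 3836 or more on all 6 of these STAT5ca arrays.

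Among the lists of related genes, limma with Benjamini-Hochberg adjustment over all 9261 genes was used, and 23.3% of all genes passed in STAT5ca minus gland, 13.9% higher and 9.39% lower. In STAT5Δ750 minus gland 19.7% passed, 9.29% higher and 10.4% lower. Without STAT5ca_177 the shares were 19.7% higher and 13.1% lower for STAT5ca, and 13% higher and 13.3% lower for STAT5Δ750. Of the 15 further luminal progenitor genes tested, 1 rose in STAT5ca tumours and 0 fell, and without STAT5ca_177 9 rose. Over all lists 29 of 127 genes passed in STAT5ca tumours and 25 in STAT5Δ750 tumours. Without gland 1, 4 or 6 these counts were 16 to 22 and 8 to 12, and with the beta-actin ratio in the model they were 10, with 0 higher, and 13. In that model 31 of the 50 values named here lost their call, 20 with a smaller difference and 11 with one at least as large, such as Cma1 in STAT5ca tumours, at −2.69 with the ratio and −2.23 without it. Over the 31 the median size was 0.93 times, and the median SE 1.35 times, that without the ratio. Myh11, Mylk, Ets1, Sox17, Flt3 and Gabbr1 kept their call in both comparisons. Cd14, a receptor of bacterial lipopolysaccharide, rose by 1.80 ± 0.56 on the log2 scale with an adjusted p of 0.0306, and by 1.53 with an adjusted p of 0.0271 without STAT5ca_177. Its highest signal, 6345, was on STAT5ca_177, as were those of the myeloid genes Csf1r and Spi1 among STAT5ca tumours, with 4834 and 1488, against 622 to 1671 and 34.2 to 90.5 on the other 6. In STAT5Δ750 tumours 1 rose, Lbp, the lipopolysaccharide-binding protein, by 1.81 ± 0.58 with an adjusted p of 0.0375, and without STAT5ca_177 6 rose. The list's median was 0.97 in STAT5ca tumours and 0.94 in STAT5Δ750 tumours.

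Of 12 pan-luminal genes, 1 rose in STAT5ca tumours, or 10 without STAT5ca_177, and 3 rose in STAT5Δ750 tumours, or 9 without it. Cdh1, the epithelial cadherin, rose in both, by 1.42 ± 0.31 (adjusted p = 0.00405) and 1.50 ± 0.32 (adjusted p = 0.00429). Krt7 and Cldn4 rose in STAT5Δ750 tumours by 3.0 ± 0.91 and 2.98 ± 0.82. Of 8 genes of hormone sensing cells, 5 fell in STAT5ca tumours and 3 in STAT5Δ750 tumours. Tnfsf11, the RANK ligand, fell in both, with log2 differences of −2.49 ± 0.47 and −2.38 ± 0.48 and adjusted p of 0.00147 and 0.00302. Foxa1 fell in STAT5ca tumours (−2.81 ± 0.70), Tbx3 in STAT5Δ750 tumours (−1.43 ± 0.43) and Wnt4 in both (−1.67 ± 0.43 and −1.48 ± 0.44). Of 13 genes of basal and myoepithelial cells, 4 fell in STAT5ca tumours and 2 in STAT5Δ750 tumours, and Myh11, a smooth muscle myosin, fell in both, with −3.20 ± 0.39 and −2.71 ± 0.40. Krt5 had 17.5 to 153 in STAT5ca tumours and 26.3 to 648 in STAT5Δ750 tumours, against 104 to 148 in gland. Krt14 had 1.3 to 1391 in STAT5ca tumours and 43.6 to 2222 in STAT5Δ750 tumours, against 62.9 to 102 in gland. Of 11 milk protein genes, 0 passed in limma in either comparison, and 0 had an unadjusted p under 0.05.

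**Figure D5:**
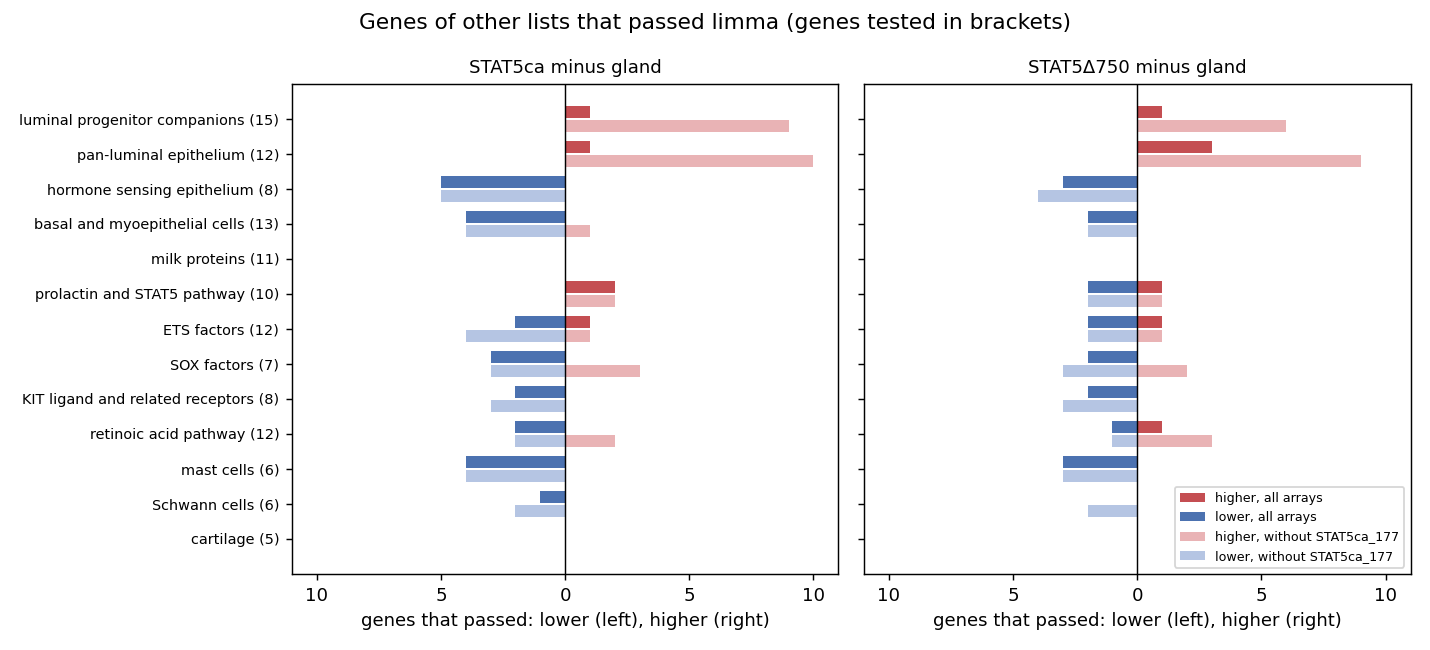
Number of genes of each list that rose or fell in STAT5ca minus gland and STAT5Δ750 minus gland at an adjusted p under 0.05, with and without STAT5ca_177. The pan-luminal bars stand at 1 with that array and 10 without it for STAT5ca, and at 3 and 9 for STAT5Δ750.

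The families and pathways of the members were counted in the same way. Of 12 other ETS factors tested, 1 rose and 2 fell in each comparison, and without STAT5ca_177 4 fell in STAT5ca tumours. Ets1 fell, with −2.28 ± 0.50 in STAT5ca tumours and −2.17 ± 0.51 in STAT5Δ750 tumours, as did Fli1, with −2.12 ± 0.70 and −2.28 ± 0.72. Etv6 rose by 1.42 ± 0.35 and 1.09 ± 0.36. Of 7 other SOX factors tested, 3 fell in STAT5ca tumours and 2 in STAT5Δ750 tumours, and without STAT5ca_177 3 and 2 also rose. Sox17 and Sox18, factors of vascular endothelium, fell, with −2.11 ± 0.28 and −1.29 ± 0.29 in STAT5ca tumours and −1.99 ± 0.28 and −1.15 ± 0.30 in STAT5Δ750 tumours. Of 8 genes of the KIT ligand list, 2 fell in both, Flt3, with −1.74 ± 0.36 and −1.80 ± 0.36, and Csf1, with −1.20 ± 0.25 and −0.99 ± 0.26. Kitl, the ligand of KIT, had 334 to 1167 in the STAT5ca tumours other than STAT5ca_177 and 286 to 995 in STAT5Δ750 tumours, against 701 to 882 in gland.

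Of 12 retinoic acid genes, 2 fell in STAT5ca tumours, Aldh1a1 and Aldh1a7, with −3.11 ± 0.72 and −3.11 ± 0.77. In STAT5Δ750 tumours Aldh1a1 fell by 2.32 ± 0.74 and Rdh10, which makes retinaldehyde, rose by 1.90 ± 0.52. Without STAT5ca_177 2 genes of this list rose in STAT5ca tumours and 3 in STAT5Δ750 tumours. Of 12 GABA genes on the array 1 passed the filter, Gabbr1, a subunit of the GABA-B receptor, and it fell, with −2.23 ± 0.45 in STAT5ca and −2.48 ± 0.46 in STAT5Δ750 tumours. Of 10 genes of the prolactin and STAT5 pathway, 2 rose in STAT5ca tumours, Ccnd1, a cyclin, by 2.87 ± 0.65 and Id2 by 1.20 ± 0.40. In STAT5Δ750 tumours Ccnd1 rose by 2.33 ± 0.67, and Stat5b and Jak2 fell, with −1.28 ± 0.35 and −0.93 ± 0.31. Between the tumour groups 0 of the 127 list genes passed in limma, and 9 had an unadjusted p under 0.05.

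Markers of other cells that carry these genes were listed. Of 6 mast cell genes tested, 4 fell in STAT5ca tumours and 3 in STAT5Δ750 tumours, and Mcpt4 fell, with −2.38 ± 0.54 and −2.10 ± 0.56. Of 6 Schwann cell genes, which would stand for another source of Sox10, 1 fell in STAT5ca tumours, Ngfr, by 1.23 ± 0.35, and 0 passed in STAT5Δ750 tumours, where 2 had an unadjusted p under 0.05. Without STAT5ca_177 2 fell in each. The list summed to 849 to 2965 in STAT5ca tumours and 509 to 2824 in STAT5Δ750 tumours, against 1744 to 2846 in gland. Over the 12 tumours without STAT5ca_177, Sox10 had r = 0.49 and rho = 0.59 with the mean of these Schwann cell genes. With the means of the pan-luminal and luminal progenitor lists it had r = −0.36 and −0.30. Over all 13 tumours these r were −0.25, 0.91 and 0.82. The part of Schwann cells in the Sox10 signal was not tested. The melanocyte genes Tyr, Tyrp1 and Dct were above 35.4 on 0 arrays, Pmel on 1 and Mitf on all 16, at 54.9 to 811. The melanocyte list summed to 113 to 1112 in STAT5ca tumours and 99.3 to 188 in STAT5Δ750 tumours, against 192 to 210 in gland. The sum of 1112 was that of STAT5ca_177. The part of melanocytes in the Sox10 and Kit signals was not tested. Of the 5 cartilage genes tested 0 passed in limma in either comparison, with 0 and 1 at an unadjusted p under 0.05.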

How the data were processed

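Mammary tumours and glands were measured on Affymetrix Mouse Genome 430A 2.0 arrays, and the deposited values are signal intensities made by the authors with MAS5, on a linear scale, per the submitters' processing notes. No version, scan batch or genome build is given in the sources used here. Array medians ran from 57.3 to 90.7, and each array was scaled to a common median of 75.9. Values were log2 of the scaled signal plus 7.9, the 20th percentile of all values, so that a fold of a dim gene is understated. Probe sets above 35.4, the 40th percentile, on at least 3 arrays were kept, 15764 of 22690, and the kept probe set of highest mean stood for a gene, which gave 9261 genes. Symbols came from the platform table, with 20393 probe sets of 1 symbol, 691 of several and 1606 unnamed, and 0 symbols changed against GRCm38.p6.

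The 3 groups were fitted in 1 model with limma 3.58.1 in R 4.3.3, with two-sided p-values adjusted by Benjamini-Hochberg in each comparison at 0.05. The number of arrays limits the precision. The members and the 15 gene lists were chosen with earlier results of these data known. Named were all members, for each list and comparison up to 3 passing genes of smallest adjusted p, the 3 genes of highest r with each member, and Krt8, Krt18, Epcam, Krt5, Krt14, Stat5a and Csn2. The fit was tested on simulated data. Alternatives were the deposited scaling, quantile normalization, other offsets, no filter, averaging the probe sets of 1 gene, the trend and robust options of limma, the beta-actin ratio as a covariate, only the 2 groups compared, and each array left out in turn. Figures were drawn with matplotlib 3.10.9.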

Additional observations from a re-analysis of the deposited data

Results flagged for a closer look

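A sample was picked out where its gap to the nearest other sample of its group, divided by the group's range, passed Dixon's 95% critical value. That value served only as a cut. The genes were chosen or named from these same arrays and share them, so the count below cannot be set against chance. Of 78 groups examined over 39 genes, 11 passed, 7 of them at STAT5ca_177. STAT5ca_177 was the lowest STAT5ca tumour for Elf5, with a ratio of 0.631, for Sox10, with 0.762, for Sox9, with 0.764, for Kit, with 0.812, for Gabrp, with 0.634, and for Cldn4, with 0.589. It was the highest for Fli1, with 0.622. STAT5ca_124 was the highest for Cpa3, with 0.596, and STAT5ca_169 the lowest for Etv6, with 0.604. STAT5Δ750_160 was the highest of its group for Tbx3, with 0.752, and for Wnt4, with 0.737.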

How the results depend on the processing

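No paired analysis was possible because the groups share no replicate numbers. Under every alternative run the members' differences moved by less than an SD pooled over both tumour groups. That SD includes STAT5ca_177, also where STAT5Δ750 tumours are set against gland. Signs turned for Elf5, Sox10, Kit, Gabrp and Aldh1a3. With the beta-actin ratio in the model, Sox10 in STAT5Δ750 minus gland went from 2.02 to 1.29, a move larger than the SD of 0.41 in STAT5Δ750 tumours. STAT5ca minus gland went from 0.10 to −1.36 for Elf5, 1.22 to −0.001 for Sox10 and 1.77 to 0.79 for Sox9. It went from 0.91 to 0.31 for Kit, 3.28 to 2.33 for Gabrp and 1.27 to −0.91 for Aldh1a3. Each of these moves exceeded the SD without STAT5ca_177, which was 1.09, 0.76, 0.69, 0.32, 0.90 and 2.09. Cnmd, from 4.60 to 2.67, moved by less than its SD of 2.76. Leaving out STAT5ca_177 moved STAT5ca minus gland by 1.02 for Sox10, 0.84 for Sox9 and 0.58 for Kit, more than the SD of 0.76, 0.69 and 0.32 in the other 6 tumours. Leaving out 1 array gave −0.27 to 1.14 for Elf5 in STAT5ca minus gland. Over the named list genes and all alternatives, 175 values kept their direction and lost their call. Of 9261 genes, 2154 passed for STAT5ca minus gland, 1284 higher and 870 lower, and 1823 for STAT5Δ750 minus gland, 860 higher and 963 lower. With the deposited scaling the splits were 622 higher and 1226 lower, and 706 and 1299, and the median of all STAT5ca differences was −0.02 instead of 0.25. Quantile normalization gave 871 and 1137, and 895 and 1278. With the beta-actin ratio as a covariate, 772 genes and 10 list genes passed for STAT5ca, and 13 list genes for STAT5Δ750, where 29 and 25 list genes passed otherwise. Leaving out 1 array gave 1179 to 3039 genes and 16 to 57 list genes for STAT5ca, with 1179, 1190 and 1315 genes without gland 1, 4 and 6, and 57 list genes without STAT5ca_177. For STAT5Δ750 it gave 835 to 2439 genes and 8 to 46 list genes, with 950, 835 and 1207 genes and 9, 8 and 12 list genes without gland 1, 4 and 6, and 46 list genes without STAT5ca_177. Between the tumour groups it gave 0 to 1 genes, 1 without STAT5ca_169. With only the 2 groups compared, 2826 genes and 51 list genes passed for STAT5Δ750. In an alternative chosen after seeing the data, the deposited scaling without STAT5ca_177, 51 list genes passed for STAT5ca, and 2752 genes and 46 list genes for STAT5Δ750. The cause was not tested. Signals under 35.4, such as Gabrp and Cnmd in gland, carry little information on the size of a change.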

Other observations

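Ranked over the 12 tumours without STAT5ca_177, an ordering chosen after seeing the data, the genes nearest Elf5 were Tspan33, Csn1s1 and Klk11, those nearest Sox10 were Sec63, Ubxn4 and Rit1, those nearest Kit were Fgd4, Adcy9 and Slc35f5, and those nearest Sox9 were Hltf, Slain1 and Hnrnpul2. For Gabrp and Cnmd the 3 genes stayed the same, and for Aldh1a3 they were Nav2, Ppp1r2 and Tnfaip2. Comp, a cartilage matrix protein singled out after its values were seen, was above 35.4 on 3 arrays, with 3511 on STAT5ca_169, 1493 on STAT5Δ750_174 and 75.5 on STAT5ca_177.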
